A study of Rattus norvegicus with 6 samples.

Results

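G protein-gated inwardly rectifying potassium (GIRK) channels are built from the products of 4 genes, Kcnj3 (GIRK1), Kcnj6 (GIRK2), Kcnj9 (GIRK3) and Kcnj5 (GIRK4). All 4 were taken by name, whatever their values, out of 38445 genes counted by RNA-seq in the rat amygdala, and all 4 passed the filter on low counts that left 18141 genes for testing. The rats were adult male Sprague Dawley rats of wild type, injected intraperitoneally with saline (Control) or with ethanol at 1 g/kg (Ethanol), and the amygdala was collected 1 h later from both groups. Each group of 6 rats gave 3 libraries, because RNA of 2 rats was pooled into each library, so the spread between libraries is a spread between pools and a value of a single rat cannot be recovered. The tissue was the whole dissected amygdala and not a single nucleus or cell type.

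GIRK channels let potassium leave a neuron and so quiet it. They open when a receptor coupled to an inhibitory G protein, such as the GABA-B, mu opioid or adenosine A1 receptor, releases the G protein's beta-gamma subunits, which bind the channel together with the membrane lipid PIP2. A channel is an assembly of subunits: GIRK2 can form channels with itself, GIRK1 reaches the membrane only with a partner, GIRK3 carries a signal that directs assemblies to endosomes and lysosomes, and GIRK4 is best known as the partner of GIRK1 in the atrium of the heart. Ethanol can open GIRK channels directly through a pocket in the channel protein, and the channels are therefore studied as a target of ethanol. RNA levels bear on how much of each subunit can be made and say nothing about that gating.

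The 4 genes differ widely in how they are laid out, which matters for reading their counts. In the Rnor_6.0 annotation used for counting, Kcnj3 (gene 50599) lies on the plus strand at chr3:41019898-41181070 and has 1827 bases of exon in 3 exonic blocks. Kcnj6 (gene 25743) lies on the minus strand at chr11:35011007-35262362 and has 16383 bases of exon in 9 blocks. Kcnj9 (gene 116560) is compact, on the minus strand at chr13:90703046-90710148 with 2308 bases of exon in 4 blocks. Kcnj5 (gene 29713) lies on the minus strand at chr8:33435493-33463410 with 3164 bases of exon in 3 blocks. No annotated exon on the same strand overlaps any of them. On the opposite strand, Kcnj9 shares 217 exon bases with Igsf8 and Kcnj3 shares 55 with the uncharacterised LOC108350374, but counting was strand-specific.

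The stretch just before each transcription start is shown as a description of the proximal promoters, and its part in the levels was not tested. RefSeq promoters on the GRCr8 build were matched by symbol for 3 of the 4 genes, and Kcnj3 is named only. Each sequence is the 250 bases upstream of the start, on the gene's own strand. The windows were searched on both strands for GGGCGG (the GC box), CCAAT (the CCAAT box) and TATAAA (the TATA box). Also searched were ACGTG (a form of the core of hypoxia response elements), AGAACA (the glucocorticoid receptor's half-site) and TGACGTCA (the full cAMP response element). The other form of the hypoxia core, GCGTG, was not searched. The matches, none of which overlaps another, are in capitals.
Kcnj6, chr11:47778349-47778598, minus strand: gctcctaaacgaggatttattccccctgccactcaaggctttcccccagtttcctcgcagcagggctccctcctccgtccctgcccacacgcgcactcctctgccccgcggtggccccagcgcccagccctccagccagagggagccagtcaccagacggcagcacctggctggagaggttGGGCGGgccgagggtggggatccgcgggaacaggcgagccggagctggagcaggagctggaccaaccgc
Kcnj9, chr13:87320294-87320543, minus strand: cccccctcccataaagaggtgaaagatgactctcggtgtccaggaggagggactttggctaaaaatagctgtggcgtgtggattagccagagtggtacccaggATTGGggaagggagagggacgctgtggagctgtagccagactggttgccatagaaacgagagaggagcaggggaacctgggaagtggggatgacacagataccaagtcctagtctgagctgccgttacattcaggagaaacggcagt
Kcnj5, chr8:39011097-39011346, minus strand: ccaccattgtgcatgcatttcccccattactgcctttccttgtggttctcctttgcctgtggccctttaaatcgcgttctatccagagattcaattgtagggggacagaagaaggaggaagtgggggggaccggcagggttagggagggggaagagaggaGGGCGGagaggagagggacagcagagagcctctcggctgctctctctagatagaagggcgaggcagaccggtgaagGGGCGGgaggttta
The Kcnj6 window holds a GC box beginning 69 bases before the start, and it is the richest in G and C at 69.2%, with 16 CpG sites. In the Kcnj5 window 2 GC boxes begin 90 and 14 bases before the start, G and C make up 57.2% and there are 8 CpG sites. The Kcnj9 window holds a CCAAT box on the opposite strand, read here as ATTGG, that begins 147 bases before the start, with 54.8% G and C and 6 CpG sites. Such matches are common: of 33469 promoter windows of this length, 30.5% hold a GC box and 34.0% a CCAAT box. No match in the 3 windows was found for the TATA box (12.9% of windows) or the ACGTG sequence (16.6%). The same held for the AGAACA half-site (17.5%) and the full cAMP response element (1.59%).

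Library depth was even, between 62576504 and 70755739 assigned reads, and libraries of the same group differed by more than counting error over all genes. Levels are given as CPM, counts divided by the library total in units of 1e6, after TMM scaling between libraries, and levels of different genes are compared as CPM per kb of annotated exon. The labelled tissue was checked on marker genes. All 14 amygdala neuron markers were found, among them Slc17a7, Gad1, Prkcd and Tac3 (listed as Tac2). Their summed level was 1683 to 1968 CPM in control and 1691 to 2059 CPM in ethanol libraries. Some single markers were less even than the sum. Slc17a7 ran from 413 (control 1) to 879 CPM (ethanol 2), and Rspo2 from 7.37 (ethanol 3) to 29.0 CPM (ethanol 2). Tac3 ran from 5.22 (control 2) to 21.4 CPM (ethanol 3), while Prkcd stayed between 20.7 and 24.5 CPM. Markers of other cells and neighbouring tissue were also unequal between the libraries. Choroid plexus markers summed to 504 to 1097 CPM in control libraries and to 9.95, 9.54 and 470 CPM in ethanol replicates 1, 2 and 3, without overlap between the groups. Of these sums, Ttr alone gave 461.5 to 995 CPM in control libraries and 425 CPM in ethanol replicate 3. Among the 6 choroid plexus markers tested, 2 were lower without overlap, against 5.19% of all genes tested, and 0 had a log2 fold change above 0. Hypothalamic neuron markers summed to 9.97 to 108 CPM in control libraries and to 22.8, 13.7 and 315 CPM in the 3 ethanol libraries, so ethanol replicate 3 stood apart from its group on both lists. Ependyma and cilia markers summed to 43.2 to 59.2 CPM in control and 36.0 to 38.3 CPM in ethanol libraries, also without overlap. Midbrain dopamine neuron markers summed to 49.4 and 40.0 CPM in ethanol replicates 2 and 3 and to 20.9 to 25.1 CPM in the other libraries, and Slc6a3, the dopamine transporter, was at 4.51 CPM in ethanol replicate 2 and at most 0.127 CPM in any other library, so ethanol replicate 2 stood apart there. The part of these markers' cells in the GIRK values was not tested beyond the fits without each library and with the choroid plexus markers. No marker of any list was at 0 in every library.

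No GIRK subunit gene changed past the threshold 1 h after ethanol. The quasi-likelihood test of edgeR, with Benjamini-Hochberg adjustment over 18141 genes and calls at an adjusted p below 0.2, called 0 genes of the family. By this test the background was the same, 0% of all genes tested, with a smallest adjusted p of 0.807 for any gene. DESeq2 called 75 genes and edgeR's likelihood ratio test 77, with no GIRK gene among them. The study reported genes past the same threshold in these libraries, by a test not given in the sources used here. At an unadjusted p below 0.05, no family member was found, against 289 higher genes (1.59%) and 473 lower genes (2.61%) of all those tested. None of the 4 had groups that did not overlap, against 3.66% of all genes without overlap and higher after ethanol and 5.19% without overlap and lower. The interval given with each gene shows which sizes of change these libraries could not tell from none.

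**Figure D1:**
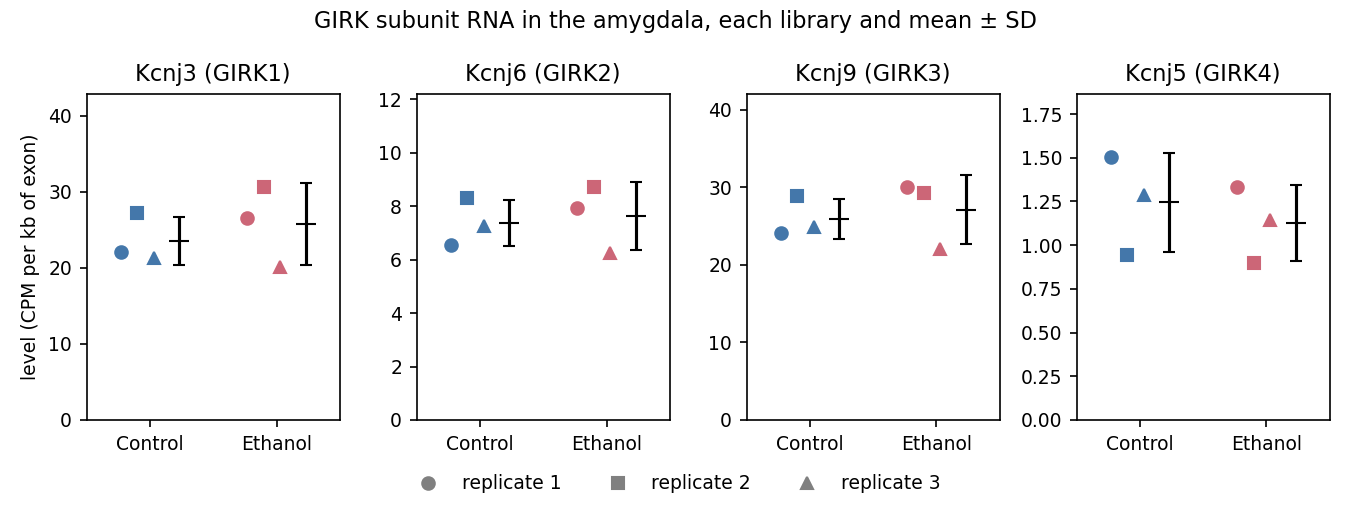
Level of each GIRK subunit gene (CPM per kb of annotated exon, vertical axes from 0 and different for each gene) in the 3 control (blue) and 3 ethanol (red) libraries, with replicate number by symbol and the mean ± SD in black. In every gene the groups overlap, and for Kcnj3 and Kcnj6 the highest and the lowest of the 6 values are both ethanol libraries.

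Kcnj3, the gene of GIRK1 and the subunit that gives mixed channels their large currents, had 40.3, 49.7 and 39.0 CPM in control replicates 1, 2 and 3 and 48.6, 56.0 and 36.7 CPM in ethanol replicates 1, 2 and 3. Ethanol replicate 2 was the highest and ethanol replicate 3 the lowest of the 6 libraries, so the ethanol values enclosed the control values. The means were 43.0 ± 5.84 and 47.1 ± 9.76 CPM (SD, n = 3 each), a log2 fold change of 0.13 ± 0.16 (SE) with an adjusted p of 1.00 by edgeR. The 95% interval of the fold ran from 0.849 to 1.41. Of the 9 pairs of an ethanol and a control library, ethanol was higher in 5. Without ethanol replicate 2 the log2 fold change was -0.012, and without ethanol replicate 3 it was 0.28, with an unadjusted p of 0.0486 and an adjusted p of 0.555 by edgeR, the smallest that any of the 4 genes had in any alternative.

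Kcnj6 encodes GIRK2, the subunit most neuronal GIRK channels contain. It gave 108, 136 and 119 CPM in the control and 130, 143 and 102 CPM in the ethanol libraries, in order of replicate number. Again ethanol replicates 2 and 3 marked the top and the bottom and the control values lay between them. Mean levels were 121 ± 14.3 and 125 ± 20.8 CPM (SD, n = 3 each). The log2 fold change was 0.050 ± 0.13 (SE), the 95% interval of the fold was 0.836 to 1.28, and the adjusted p was 1.00 by edgeR. Its sign was not stable: it was -0.036 without control replicate 1, -0.056 without ethanol replicate 2, and -0.070 when libraries were scaled to the pan-neuronal markers.

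Kcnj9, the gene of GIRK3, gave 55.7, 66.7 and 57.3 CPM in control replicates 1, 2 and 3. In ethanol replicates 1, 2 and 3 it gave 69.4, 67.6 and 50.8 CPM. Ethanol replicates 1 and 2 were above every control library by little, and ethanol replicate 3 was below every one. Group means were 59.9 ± 5.96 and 62.6 ± 10.3 CPM (SD, n = 3 each), with a log2 fold change of 0.063 ± 0.13 (SE), a 95% interval of the fold from 0.851 to 1.28 and an adjusted p of 1.00 by edgeR. The log2 fold change became -0.017 without ethanol replicate 1 and -0.055 with scaling to the pan-neuronal markers.

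Kcnj5, the gene of GIRK4, was scarce in the amygdala. Its counts were 311, 212 and 258 reads in the control and 271, 183 and 252 reads in the ethanol libraries, which correspond to 4.76, 2.98 and 4.07 CPM and to 4.22, 2.84 and 3.62 CPM. Replicate 2 had the lowest value of its group in control and in ethanol libraries, and the groups overlapped. Its means were 3.94 ± 0.893 and 3.56 ± 0.691 CPM (SD, n = 3 each), and the log2 fold change was -0.14 ± 0.21 (SE) with an adjusted p of 1.00 by edgeR. The 95% interval of the fold, 0.648 to 1.27, was the widest of the 4 genes. Without control replicate 1 the log2 fold change was 0.010. Counting error alone gives a coefficient of variation of 6.35% at this depth, and the coefficients observed were 22.7% in the control and 19.4% in the ethanol libraries.

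**Figure D2:**
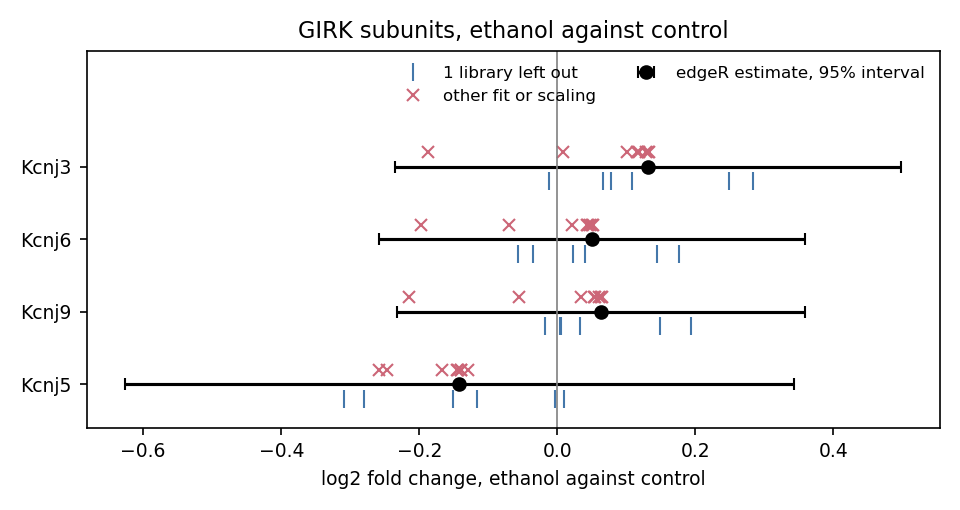
Log2 fold change of ethanol against control (horizontal axis) for each GIRK subunit gene, with the edgeR estimate and its 95% interval in black, estimates with 1 library left out as blue bars and estimates under other fits or scalings as red crosses. Every 95% interval includes 0, and for each gene the alternatives fall on both sides of 0.

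The choroid plexus markers were also entered into the fit, because their sums did not overlap between the groups. The ependyma and cilia markers, which did not overlap either, were not entered. With the mean log2 level of the choroid plexus markers as a covariate, the log2 fold changes were -0.19 for Kcnj3, -0.20 for Kcnj6, -0.21 for Kcnj9 and -0.26 for Kcnj5. The smallest adjusted p of the 4 was 0.904 by edgeR. This covariate moves with the treatment in these 6 libraries, and the part of choroid plexus tissue in the values of the GIRK genes was not tested further. In bulk tissue, fewer cells that express a gene and less RNA of it per cell cannot be told apart.

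The order of the subunits was nearly the same in all 6 libraries. Per kb of exon, Kcnj9 and Kcnj3 were at the top with 26.5 ± 3.32 and 24.7 ± 4.12 CPM per kb (SD over the 6 libraries), Kcnj6 followed with 7.51 ± 0.984 and Kcnj5 was last with 1.19 ± 0.235 CPM per kb. Kcnj9 and Kcnj3 did not separate beyond their spread: their ranges, 22.0 to 30.1 and 20.1 to 30.7 CPM per kb, overlapped, and the ratio of Kcnj3 to Kcnj9 within a library lay between 0.859 and 1.05 and was above 1 in 1 of 6 libraries. The next steps held in 6 of 6 libraries. Kcnj3 was 2.94 to 3.51 times as high as Kcnj6 per kb, and Kcnj6 was 4.37 to 9.71 times as high as Kcnj5 per kb. Among all genes tested, the per kb level of Kcnj9 stood at the 83.2nd percentile, Kcnj3 at the 81.8th, Kcnj6 at the 57.4th and Kcnj5 at the 29.6th.

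This order depends on the length by which counts are divided. In CPM, with no division by length, Kcnj6 was the highest of the 4 at 123 ± 16.1 CPM over the 6 libraries (SD), above Kcnj9 at 61.2 ± 7.67 CPM and Kcnj3 at 45.1 ± 7.53 CPM, and its 16383 annotated exon bases are the union over all annotated transcripts. A per kb level is too low for a gene whose main transcript is shorter than that union, and which transcripts of Kcnj6 the amygdala uses was not tested, since the counts are summed per gene. The last place of Kcnj5 does not depend on it, at 3.75 ± 0.743 CPM.

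**Figure D3:**
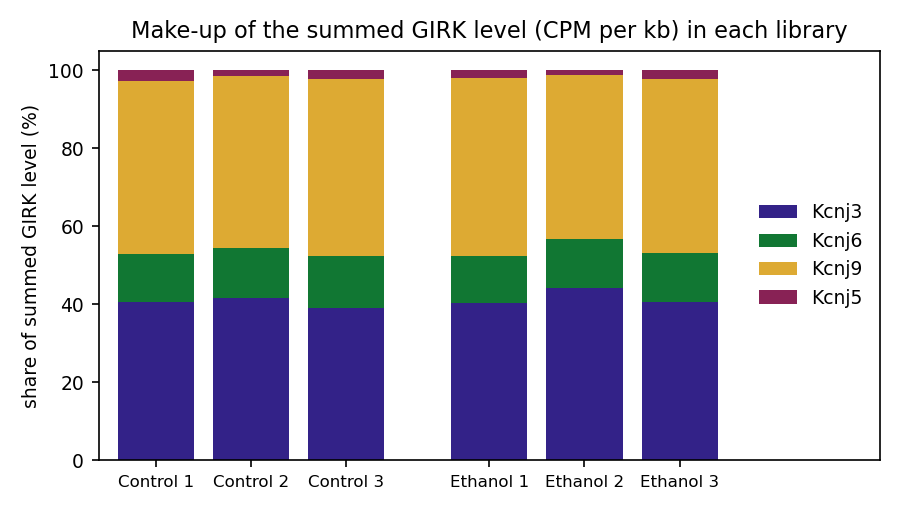
Share of each subunit gene in the summed GIRK level (CPM per kb, in percent) in each of the 6 libraries. Kcnj9 makes up 42.1% to 45.6%, Kcnj3 39.0% to 44.1%, Kcnj6 makes up 12.03% to 13.3% and Kcnj5 at most 2.77% in any library, and the ranges of the 2 groups overlap for every gene.

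The proportions between the subunits, which do not depend on scaling between libraries, overlapped between the groups. Of the summed per kb level, Kcnj9 made up 44.7% ± 0.608 in control and 44.1% ± 1.80 in ethanol libraries (SD, n = 3 each), and Kcnj3 made up 40.4% ± 1.33 and 41.7% ± 2.09. Kcnj6 made up 12.7% ± 0.583 and 12.4% ± 0.325, and Kcnj5 2.19% ± 0.679 and 1.88% ± 0.526. The log2 ratio of Kcnj3 to Kcnj6, per kb, was 1.75, 1.71 and 1.56 in the control and 1.75, 1.81 and 1.68 in the ethanol libraries. The groups overlapped, and the mean difference of 0.075 had a 2-sided exact permutation p of 0.5. For Kcnj3 to Kcnj9 the mean log2 ratio was -0.14 ± 0.067 in control and -0.081 ± 0.13 in ethanol libraries (SD, n = 3 each), with an exact permutation p of 0.7 for the difference of 0.064. For Kcnj6 to Kcnj9 it was -1.82 ± 0.054 and -1.83 ± 0.089, with an exact permutation p of 0.9 for the difference of -0.011. With 3 libraries against 3, 0.1 is the smallest p that this test can give. The differences of the last 2 ratios changed sign when a library was left out, to -0.0094 for Kcnj3 to Kcnj9 without ethanol replicate 2 and, for Kcnj6 to Kcnj9, to 0.011 without control replicate 3 and 0.036 without ethanol replicate 1.

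**Figure D4:**
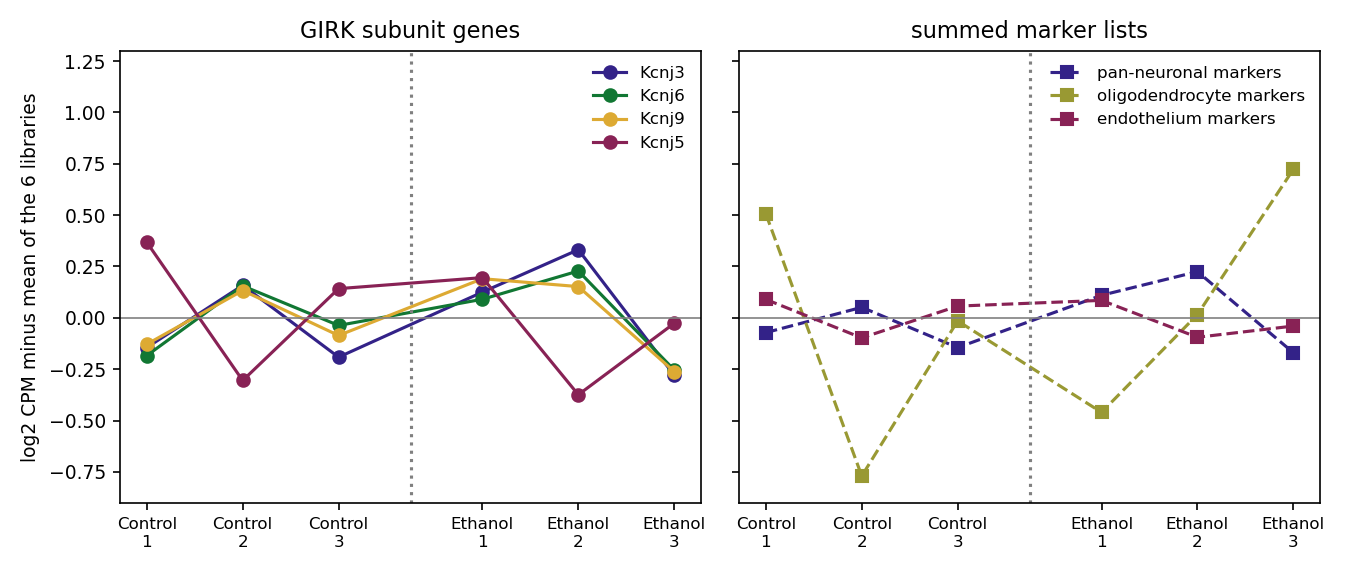
Log2 CPM minus the mean of the 6 libraries (vertical axis), for the GIRK subunit genes on the left and for summed marker lists on the right, in the control libraries and, after the dotted line, the ethanol libraries. Kcnj3, Kcnj6 and Kcnj9 follow each other and the pan-neuronal markers, with a low in ethanol replicate 3, while Kcnj5 follows another course with lows in replicate 2 of both groups.

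Most of the variation of the GIRK genes ran across the groups, from library to library. Kcnj3, Kcnj6 and Kcnj9 went up and down together over the 6 libraries, with a Pearson r of log2 CPM of 0.942 (Spearman rho 0.943) between Kcnj3 and Kcnj6, 0.924 (rho 0.771) between Kcnj3 and Kcnj9, and 0.939 (rho 0.829) between Kcnj6 and Kcnj9. The exact permutation p over the 720 pairings of 6 libraries was 0.0125, 0.0278 and 0.0139 for these Pearson r, and 0.0167, 0.103 and 0.0583 for the rho. After adjustment over the 66 relations computed, the p was 0.138, 0.144 and 0.138 for r and 0.22, 0.339 and 0.321 for rho, so none passed 0.05. Without the 2 libraries farthest from the median, r was 0.863, 0.952 and 0.789. With deviations from the group means in place of the levels, r was 0.951, 0.926 and 0.939, so the relation was as large within the groups. Kcnj5 ran the other way, with r of -0.631, -0.646 and -0.419 against Kcnj3, Kcnj6 and Kcnj9 (rho -0.486, -0.6 and -0.2), and the smallest exact permutation p of these was 0.176.

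Cell type markers were compared with the 4 genes in the same way. Kcnj3 had an r of 0.981 (rho 0.943) with the summed pan-neuronal markers, Kcnj6 0.881 (rho 0.886) and Kcnj9 0.897 (rho 0.886), while Kcnj5 had -0.533 (rho -0.314). Without the 2 libraries farthest from the median of the gene, these r were 0.948, 0.924, 0.874 and 0.421, so the negative sign of Kcnj5 rested on those libraries. Against the summed endothelial markers Kcnj5 had an r of 0.965 (rho 0.943), and the other 3 genes had -0.465, -0.445 and -0.212. Kcnj6 had its highest r, 0.988 (rho 0.943), with Slc17a7, the vesicular glutamate transporter of cortical-type excitatory neurons. Kcnj3 and Kcnj9 had 0.927 and 0.897 with Slc17a7. With Slc17a6, the other vesicular glutamate transporter listed, Kcnj6 went the other way, with an r of -0.738 (-0.23 without the 2 farthest libraries). Its r was -0.091 and -0.505 with the GABA neuron enzymes Gad1 and Gad2. The hypothalamic markers had an r of -0.934, -0.963 and -0.956 with Kcnj3, Kcnj6 and Kcnj9, and the oligodendrocyte markers -0.663, -0.803 and -0.851. In the same order of genes, the summed amygdala neuron markers had 0.918, 0.780 and 0.893. The striatal-type markers had -0.719, -0.858 and -0.737, and -0.376, -0.466 and -0.877 without the 2 farthest libraries. Without the 2 farthest libraries the hypothalamic r were -0.953, -0.913 and -0.987, while the oligodendrocyte r were -0.863, -0.178 and -0.693, so that of Kcnj6 did not hold. The smallest exact permutation p among the 66 relations was 0.00278, shared by Kcnj3 with the pan-neuronal markers, Kcnj6 with Slc17a7 and Kcnj5 with the endothelial markers, and the smallest adjusted p was 0.0611. Without the 2 farthest libraries the last 2 of these relations had r of 0.997 and 0.891. All of these points share the same 6 libraries, whose marker sums differ, and the part of cell make-up in the GIRK values was not tested.

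Levels were also expressed against the neuronal markers. For every 1000 counts of the 8 pan-neuronal markers there were 7.66 to 8.90 counts of Kcnj3, 20.99 to 24.4 of Kcnj6, 10.6 to 11.95 of Kcnj9 and 0.452 to 0.928 of Kcnj5. The range over the 6 libraries was narrower than in CPM for Kcnj3, Kcnj6 and Kcnj9 and wider for Kcnj5. Scaling the libraries this way moved the median log2 fold change of all genes tested from 0.0068 to -0.097. It placed Kcnj3 at 0.0088, Kcnj6 at -0.070, Kcnj9 at -0.055 and Kcnj5 at -0.25 on the log2 scale, so that Kcnj3, Kcnj6 and Kcnj9 stayed above the median gene and Kcnj5 below it, with adjusted p of 0.989 to 0.996 by edgeR.

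The genes whose log2 CPM followed each subunit most closely over the 6 libraries were, for Kcnj3, Pdk3 (r 0.999), Aars1 (0.998) and Prkaa2 (0.998). For Kcnj6 they were Insr (0.998), the insulin receptor, Prep (0.995) and Sstr4 (0.995), a somatostatin receptor. Rapgef2 (0.996), Snap91 (0.994) and Rxrg (0.994) were closest to Kcnj9, and Zfhx3l (0.994), Zfp709 (0.994) and Nusap1 (0.990) to Kcnj5. These are the highest of 13781 values each and carry no test. An r of at least 0.9 was more common for the first 3 subunits, with 928 genes (6.73%) for Kcnj3, 863 (6.26%) for Kcnj6 and 778 (5.65%) for Kcnj9, and less so for Kcnj5, with 124 genes (0.8998%).

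The genes that act with GIRK channels were taken as 6 lists of 89 genes in all: receptors coupled to inhibitory G proteins, their alpha subunits, the beta and gamma subunits, regulators of G protein signalling (RGS), proteins of GIRK trafficking and of PIP2 supply, and the other inwardly rectifying (Kir) channels with their sulfonylurea receptor (SUR) subunits. Of these, 85 passed the filter and 0 had an adjusted p below 0.2 by edgeR. Drd4 and Kcnj1 were too low to be tested, Gng11 had no counts in any library and Rgs11 was not matched. At an unadjusted p below 0.05 there were 6 higher genes and 1 lower gene, which is 7 of 85 against 4.20% of all genes tested, and 7 higher and 2 lower genes had groups that did not overlap, against 3.66% and 5.19% of all genes tested. The median log2 fold change over the 85 was 0.072, against 0.0068 over all genes tested, and 65 of the 85 were above 0, against 9559 of 18141. With scaling to the pan-neuronal markers the median was -0.032 against -0.097 over all genes and 2 of the 85 had an unadjusted p below 0.05, against 2.66% of all genes. Without ethanol replicate 3 that count was 15, and the share of all genes was then 8.92%.

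**Figure D5:**
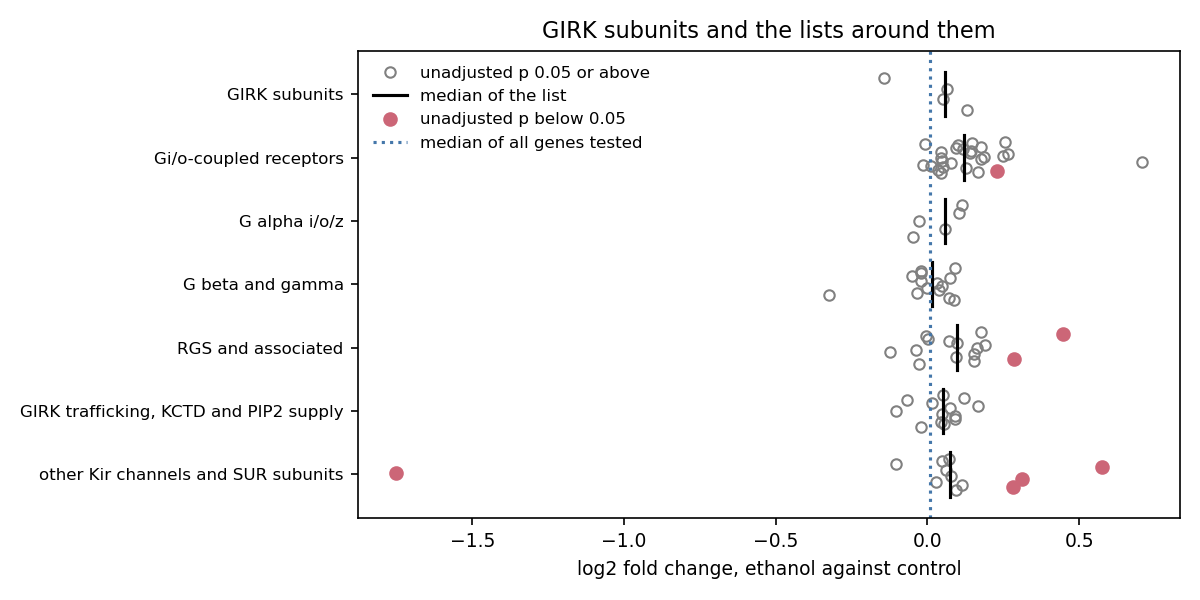
Log2 fold change of ethanol against control (horizontal axis) for each tested gene of the GIRK family and of the 6 lists around it, 1 row per list, with genes at an unadjusted p below 0.05 filled in red, the list median as a black bar and the median of all genes tested as a dotted line. The list medians lie between 0.016 and 0.12, and the gene farthest from 0 is Kcnj13 at -1.75.

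Among the receptors, 26 were tested, with a median log2 fold change of 0.12 and 24 above 0 (9559 of 18141 over all genes tested). Gabbr1 and Gabbr2, the subunits of the GABA-B receptor, had the highest levels of the list at 287 ± 4.83 and 60.7 ± 8.22 CPM per kb in control libraries (SD, n = 3), with log2 fold changes of 0.044 ± 0.087 and 0.17 ± 0.13 (SE). Adora1, the adenosine A1 receptor, had the smallest p of the list: 64.7, 67.7 and 62.7 CPM in the control and 68.8, 74.7 and 85.2 CPM in the ethanol libraries, without overlap, a log2 fold change of 0.23 ± 0.085 (SE) and an adjusted p of 1.00 by edgeR. Adra2a, an alpha-2 adrenergic receptor, came next with 0.25 ± 0.15 (SE). Sstr4, named above for its likeness to Kcnj6, was at 7.14, 12.8 and 9.19 CPM in control and 11.4, 13.2 and 6.61 CPM in ethanol libraries.

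The transducing G proteins had log2 fold changes close to 0 apart from the scarce Gnb3. Of the 5 alpha subunits, Gnai2 and Gnai1 were the highest per kb, at 156 ± 8.39 and 84.2 ± 6.61 CPM per kb in control libraries (SD, n = 3), with log2 fold changes of 0.057 ± 0.086 and -0.049 ± 0.14 (SE). Gnao1 and Gnaz had the smallest p of that list, with log2 fold changes of 0.11 ± 0.070 and 0.11 ± 0.080 (SE). Of the 14 tested beta and gamma subunits, whose median was 0.016, Gnb1 and Gng2 were the highest at 145 ± 2.19 and 138 ± 1.65 CPM per kb in control libraries (SD, n = 3), with log2 fold changes of 0.086 ± 0.069 and -0.00086 ± 0.085 (SE). Gnb3, a beta subunit, had 4.76, 6.36 and 5.49 CPM in control and 4.71, 3.93 and 4.64 CPM in ethanol libraries, which did not overlap, with a log2 fold change of -0.32 ± 0.14 (SE). Gng13 was at 0.089 ± 0.062 (SE). Each of these had an adjusted p of 1.00 by edgeR.

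RGS proteins speed the return of G proteins to rest and so shorten GIRK currents. Of 15 tested, 11 had a log2 fold change above 0 (9559 of 18141 over all genes tested), with a median of 0.097. Rgs4 and Rgs10 were the highest per kb, at 67.5 ± 10.8 and 58.0 ± 6.57 CPM per kb in control libraries (SD, n = 3), with log2 fold changes of 0.15 ± 0.14 and -0.038 ± 0.091 (SE). Rgs6 and Rgs7bp had the smallest p. Rgs6, of the RGS group that pairs with the beta subunit encoded by Gnb5, had 15.4, 15.03 and 17.0 CPM in control and 17.6, 17.9 and 22.4 CPM in ethanol libraries, a log2 fold change of 0.29 ± 0.11 (SE). Rgs7bp, which anchors that group at the membrane, had 191, 216 and 166 CPM in control and 273, 314 and 193 CPM in ethanol libraries, a log2 fold change of 0.45 ± 0.17 (SE), and its ethanol replicate 3 lay within the control range. In the trafficking and PIP2 list, 13 were tested with a median of 0.050. Grk2, a kinase that binds beta-gamma subunits, was at 86.3 ± 2.06 CPM per kb in control libraries (SD, n = 3) and had a log2 fold change of 0.090 ± 0.057 (SE), Pip5k1c, a kinase that makes PIP2, was at 75.2 ± 9.16 CPM per kb with 0.073 ± 0.11 (SE), and Plcb1, a phospholipase that consumes it, had 0.17 ± 0.094 (SE). The adjusted p was 1.00 by edgeR for each of them.

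The other Kir channels were the closest relatives and held the only lower gene of the lists at an unadjusted p below 0.05. Of 12 tested, with a median of 0.075, Kcnj16 and Kcnj10, the channels of astrocytes and oligodendrocytes, were the highest per kb at 19.9 ± 1.54 and 17.8 ± 1.46 CPM per kb in control libraries (SD, n = 3), below Kcnj9 and Kcnj3, and had log2 fold changes of -0.10 ± 0.17 and 0.028 ± 0.15 (SE). Kcnj13, a channel of choroid plexus epithelium, had 9.54, 18.2 and 16.7 CPM in control and 1.75, 3.71 and 7.67 CPM in ethanol libraries. The groups did not overlap, the log2 fold change was -1.75 ± 0.47 (SE) and the adjusted p was 0.966 by edgeR. The study named Kcnj13 among its decreased transcripts and also measured it as lower by qPCR. The choroid plexus markers were lower in the same libraries (504 to 1097 CPM against 9.54 to 470 CPM in the sum). With them as a covariate in edgeR, 7 of the 85 list genes were higher at an unadjusted p below 0.05 and 0 were lower. The share of all genes tested at such a p was then 5.09%. Kcnj13 thus no longer passed as a lower gene, and the part of choroid plexus tissue in its values was not tested further. Kcnj15 was at the other end, with 1.07, 1.04 and 1.18 CPM in control and 1.73, 1.445 and 1.72 CPM in ethanol libraries, no overlap, a log2 fold change of 0.57 ± 0.15 (SE) and an adjusted p of 0.966 by edgeR. Kcnj11, the pore of the ATP-sensitive potassium channel, and Kcnj4 were chosen for mention after their values were seen, to complete the 4 Kir genes at an unadjusted p below 0.05. Kcnj11 had 17.6, 16.0 and 16.5 CPM in control and 18.9, 20.2 and 23.1 CPM in ethanol libraries, a log2 fold change of 0.31 ± 0.091 (SE). Kcnj4 had 53.7, 64.9 and 59.4 CPM in control and 71.9, 82.1 and 62.2 CPM in ethanol libraries, a log2 fold change of 0.28 ± 0.11 (SE), with ethanol replicate 3 inside the control range.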

How the data were processed

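RNA-seq of the amygdala was analysed for 3 control and 3 ethanol libraries, grouped by the treatment in the sample labels, each a pool of RNA from 2 rats. Integrity of every RNA was checked by the authors before library preparation with a stranded mRNA kit, and single-end reads of 100 nt came from 3 lanes. The authors deposited raw counts per gene and library, made per the file headers with featureCounts (Subread 1.6.3, strand setting 2) over the exons of the Rnor_6.0 annotation. The submitters' processing notes also name STAR 2.7.0f, FastQC 0.11.8, R 3.6.2, edgeR and limma. The exact test of the study is not given in the sources used here. Such counts leave out reads that map to several places or to more than 1 gene, and a gene's count sums its transcripts.

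Symbols for 29322 of 38445 identifiers came from a RefSeq gene table of the GRCr8 build, used for names only. The filter was filterByExpr of edgeR 4.0.16 (R 4.3.3; minimum count 10, total 15), and TMM factors were 0.976 to 1.01. The test was glmQLFTest, with p-values adjusted after Benjamini and Hochberg across every gene tested. SE is the absolute log2 fold change over the square root of F, and intervals are 95% from the same fit. log2 CPM has a prior count of 2. At these depths 3 counts equal 0.0424 to 0.0479 CPM, and intervals cover the spread between these pools. Ratios were compared by 2-sided exact permutation tests over 20 label swaps, correlations over 720 pairings. Alternatives were DESeq2 1.42.0, edgeR's likelihood ratio test, voom of limma 3.58.1, other scalings, no filter, a replicate block, a choroid plexus covariate and leaving out each library. The fits were tested on simulated counts. The changes there were larger and the spread smaller than those of the GIRK genes, so that test does not cover changes of their size.

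The subunits, lists and tests were chosen with earlier results of these data known. Named genes are the 4 subunits, from each list the 2 highest per kb in control libraries and the 2 with the smallest p, and for each subunit the 3 genes with the highest r among symbols (no locus numbers) with a mean of at least 1 CPM. The chromatin data of the study were not analysed here.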

Additional observations from a re-analysis of the deposited data

How the results depend on the processing

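Every fit gave each GIRK gene an adjusted p of 0.555 or more, and their log2 fold changes are too small against the spread for a direction. Over the subunits' 56 estimates under alternatives, 46 kept the sign and 10 reversed it. With the choroid plexus covariate, Kcnj3 was at -0.187, Kcnj6 at -0.197 and Kcnj9 at -0.214. With scaling to pan-neuronal markers, Kcnj6 was at -0.0699 and Kcnj9 at -0.0551. Leaving out each library gave -0.0121 to 0.283 for Kcnj3, -0.0563 to 0.176 for Kcnj6, -0.0173 to 0.194 for Kcnj9 and -0.309 to 0.0103 for Kcnj5, and log2 ratio differences of -0.00944 to 0.113 for Kcnj3 to Kcnj9 and -0.0518 to 0.0365 for Kcnj6 to Kcnj9. The number of genes changed was 0 by edgeR's quasi-likelihood test (762 at an unadjusted p below 0.05), 75 by DESeq2, 77 by the likelihood ratio test and 2 with the choroid plexus covariate. Leaving out each library gave 0 to 82, with 82 without ethanol replicate 3 and 4 without ethanol replicate 1. The cause was not tested. The count of pathway genes at an unadjusted p below 0.05, an alternative added after seeing the data, was 7 of 85, with 2 under pan-neuronal scaling and 5 to 15 on leaving out each library (15 without ethanol replicate 3). The share of all genes tested at such a p was 4.20%, 2.66% under pan-neuronal scaling and 8.92% without ethanol replicate 3.

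Control and ethanol libraries share the replicate numbers 1, 2 and 3 but not rats. Over 14241 genes, deviations from group means correlated by 0.0264, 0.388 and 0.211 for the same number. For different numbers the correlations were -0.414, 0.305, 0.184, -0.427, -0.264 and -0.0421, with 0.305 for control 1 with ethanol 3. The numbers stand for different rats, so they were not taken as pairs in the main fit. With the replicate number as a block, 0 genes passed (1030 at an unadjusted p below 0.05), and the log2 fold changes were 0.119 for Kcnj3, 0.0433 for Kcnj6, 0.0542 for Kcnj9 and -0.139 for Kcnj5. The paired log2 ratio differences equal the unpaired ones by construction, so their equality carries no information. Their exact sign-flip p were 0.5 to 1, where 0.25 is the smallest possible. Counting error gives coefficients of variation of 1.11% to 6.35% for the GIRK genes at these depths, which limits Kcnj5 the most.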
